A study of Homo sapiens with 183 samples.

Results

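The interferon-stimulated genes described here are 41 listed genes whose transcripts are classically raised when interferon reaches a cell. They were taken by gene name from the messenger RNA tables, which hold 19875 gene names each. A row was present for 39 of the 41, and PARP9 and PARP14 had none. Levels were followed in 183 libraries from 9 human cancer cell lines, namely 127 libraries from knockout experiments and 56 from experiments with the inhibitor CB-6644. The study asked how the transcription factor KLF5 and the ATPases RUVBL1 and RUVBL2 act on gene expression in pancreatic cancer cells.

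All knockout cells carried Cas9 and a lentiviral guide RNA and were collected on day 5. The controls, sgRosa, carried a guide against the Rosa locus. AsPC-1, a classical pancreatic line, was used in 4 experiments, which are numbered here as the replicate labels number them. Experiment 1 had 2 sgRosa and 6 sgKLF5 libraries. Experiment 2 had 4 each of sgRosa, sgRUVBL1 and sgSERPINB5. Experiment 3 had 4 each of sgRosa, sgKLF5, sgRUVBL1 and sgRUVBL2 with 2 each of sgCDK1 and sgRPA3, and a further experiment had 4 sgRosa and 4 sgCHD4 libraries. T3M-4 and BxPC-3, the basal-like lines, each had an experiment 1 with 2 sgRosa, 4 sgKLF5 and 2 sgRPA3 libraries. In experiment 2 of either line there were 4 sgRosa, 4 sgKLF5, 2 sgCDK1 and 2 sgRPA3 libraries, with 3 sgRUVBL1 and 4 sgRUVBL2 libraries in T3M-4 and 4 and 3 in BxPC-3. CFPAC-1, a classical line, had 4 sgRosa, 3 sgKLF5, 4 sgRUVBL1, 2 sgRUVBL2, 2 sgCDK1 and 2 sgRPA3 libraries, and SUIT-2, also classical, had 4 sgRosa and 4 sgKLF5.

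CB-6644, an allosteric inhibitor of the RUVBL1/2 ATPase, was given for 24 hours and compared with its solvent DMSO. AsPC-1 and T3M-4 cells carried an empty vector (EV) or the inhibitor-resistant variants RUVBL1 A62T or RUVBL2 dF109, with 3 CB-6644 libraries and 1 DMSO library for each construct. T84 (colorectal), A-375 (melanoma), H1048 (small-cell lung cancer) and RH30 (alveolar rhabdomyosarcoma) had 4 libraries in each arm. Guides against CDK1, a kinase that drives cell division, and RPA3, a subunit of the single-strand DNA binding complex, stood for loss of genes that every dividing cell needs. SERPINB5 encodes a serpin and CHD4 a chromatin remodeller. A knockout pool was made with guides that the labels do not assign to libraries, so guides could not be compared. The study's legends call knockout replicates biological, but the labels do not say that they came from separate cultures, and the p-values measure only the spread between these libraries.

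Interferons are secreted when a cell senses foreign or misplaced nucleic acid. Type I and type III interferons bind cell-surface receptors whose Janus kinases phosphorylate STAT2 within a complex that also holds IRF9 and binds the interferon-stimulated response element (ISRE). A shorter palindrome, the gamma-activated site (GAS), is used upstream of genes such as IRF1. The induced proteins block viral entry, translation, replication or release, and several of them, among them the RNA sensor DDX58 (RIG-I) and the transcription factor IRF7, feed back into further induction. Tumour lines can keep a part of this programme active without added interferon.

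The promoters of the members differ in these elements, which the sequences of 6 of them show. RefSeq (GRCh38.p14) held a promoter entry, spanning 250 bases before to 50 after the start, for 32 of the 41 listed genes, DDX58 under the name RIGI. IRF7, DHX58, IFIT2, OAS2, OASL, MX2, GBP2, USP18 and TRIM22 had no entry. The ISRE-like letters GAAANNGAAA, or TTTCNNTTTC for the other strand, were in 20 of the 32 entries (62.5%) against 1255 of all 35116 entries (3.57%). The GAS-like letters TTCNNNGAA, which read the same on both strands, were in 10 (31.2%) against 2689 (7.66%). Both were found in 6 entries and neither in 8. A match is a description of the letters and not a bound site. The 200 bases before the start are printed below for 4 members with ISRE-like letters and for 2, IRF1 and IRF9, with GAS-like letters in their place. The 6 are members whose levels are followed through the comparisons, and they show how the elements differ in number and kind. Capitals mark the ISRE-like matches, and the GAS-like matches in IRF1 and IRF9 alone.
IFI6 (chr1:27672193-27672392, minus strand): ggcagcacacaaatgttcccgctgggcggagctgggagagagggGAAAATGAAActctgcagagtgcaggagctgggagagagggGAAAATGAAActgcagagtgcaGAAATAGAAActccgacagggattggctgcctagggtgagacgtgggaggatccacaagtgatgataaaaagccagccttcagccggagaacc
ISG15 (chr1:1013297-1013496, plus strand): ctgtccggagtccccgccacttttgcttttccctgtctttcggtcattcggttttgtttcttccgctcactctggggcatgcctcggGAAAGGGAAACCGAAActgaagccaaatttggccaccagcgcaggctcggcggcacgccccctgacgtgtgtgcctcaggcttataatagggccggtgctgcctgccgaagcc
IFIT1 (chr10:89392423-89392622, plus strand): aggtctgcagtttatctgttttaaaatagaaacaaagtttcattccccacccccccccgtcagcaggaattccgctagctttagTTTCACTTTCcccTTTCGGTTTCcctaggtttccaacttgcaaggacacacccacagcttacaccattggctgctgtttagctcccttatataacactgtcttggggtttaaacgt
IFI27 (chr14:94110536-94110735, plus strand): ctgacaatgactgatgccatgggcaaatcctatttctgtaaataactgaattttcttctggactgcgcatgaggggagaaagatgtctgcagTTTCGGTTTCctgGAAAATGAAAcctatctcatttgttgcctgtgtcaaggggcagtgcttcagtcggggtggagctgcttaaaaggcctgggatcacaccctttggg
IRF1 (chr5:132490774-132490973, minus strand): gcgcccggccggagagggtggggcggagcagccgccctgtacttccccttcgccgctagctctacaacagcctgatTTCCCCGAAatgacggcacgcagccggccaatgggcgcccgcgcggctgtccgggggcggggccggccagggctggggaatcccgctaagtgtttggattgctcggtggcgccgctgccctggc
IRF9 (chr14:24161065-24161264, plus strand): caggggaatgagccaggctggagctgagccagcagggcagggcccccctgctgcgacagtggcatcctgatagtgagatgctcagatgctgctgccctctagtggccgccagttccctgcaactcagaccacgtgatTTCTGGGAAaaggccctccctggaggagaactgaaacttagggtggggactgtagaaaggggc
IFI6 held 3 separate ISRE-like matches, whereas the matches in ISG15 overlapped each other. IFIT1 and IFI27 each held a pair of ISRE-like matches, and in IFI27 a GAS-like match overlapped both.

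Levels are given as TPM, transcript abundances that are scaled to the same sum in each library and corrected for transcript length, so that genes can be compared with one another. Differences are log2 fold changes of TPM + 1, which understate the change of genes near or below 1 TPM. They were tested with limma over all genes at or above a mean of 1 TPM, and p-values were adjusted over all of those genes by Benjamini-Hochberg. A gene is called higher or lower at an adjusted p under 0.05. Each count of members is set beside the share of all tested genes called in the same direction. Between 11292 and 14024 genes reached 1 TPM per library. Marker genes of the labelled origins were present. EPCAM was at 56.4 TPM or more in the pancreatic lines, CDX1 at 60.5 to 139 in T84, SOX10 at 170 to 238 in A-375, POU2F3 at 293 to 501 in H1048 and MYOD1 at 359 to 770 in RH30. PMEL and MLANA were at or under 3.60 and 3.19 TPM in A-375, and TRPM5 was at or under 0.182 TPM in H1048. The leukocyte markers PTPRC, CD3E and CD14 summed to at most 24.4 TPM, which was reached in T3M-4, where PTPRC was at 4.33 to 23.2. The targeted messenger RNA was called lower in 15 of 29 knockout comparisons. It was called higher in 3, namely KLF5 in T3M-4 experiment 2, KLF5 in AsPC-1 experiment 1 and CHD4. A guide cuts the gene and not its transcript, so these levels do not measure the protein. The library that stood farthest from its own group was sgKLF5 replicate 2 of T3M-4 experiment 1, and values with and without it are given where it counts.

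The untreated level of the programme differed widely between lines and between experiments of the same line. In CFPAC-1 sgRosa libraries the median over the 39 members was 35.8 to 48.4 TPM, and 10 members had a median of 100 TPM or more. T3M-4 sgRosa libraries were at 39.7 to 50.0 TPM in experiment 2 and at 16.3 in both libraries of experiment 1. BxPC-3 was at 32 to 34.9 TPM in experiment 1 and 22.4 to 26.5 in experiment 2. SUIT-2 was lower, at 7.36 to 14.5 TPM. AsPC-1 ranged from 4.73 to 5.12 TPM in experiment 2 to 12.9 to 14.8 in experiment 3, and its DMSO libraries were at 16.6 to 18.6. Outside the pancreas the DMSO medians were 10.8 to 13.2 TPM in T84, 6.81 to 9.22 in H1048, 4.50 to 6.13 in A-375 and 1.48 to 1.81 in RH30. The ranges of CFPAC-1, T3M-4 experiment 2 and T3M-4 DMSO overlapped at the top of this order, and RH30 lay below every other set.

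The same ordering did not hold gene by gene. IFI27, a mitochondrial protein that is a widely used interferon marker, had a median of 1917 TPM in CFPAC-1, 1099 in BxPC-3 experiment 1 and 338 in T84. In AsPC-1 experiment 2 it had 0.508 TPM, in A-375 0.616 and in RH30 1.48. ISG15, the ubiquitin-like protein that is attached to newly made proteins, led in T3M-4 with 1311 TPM in experiment 2, and was at 164 TPM in AsPC-1 experiment 2 and 18.5 in RH30. OASL, a member of the oligoadenylate synthetase family without enzyme activity, was at 248 TPM in AsPC-1 experiment 3 but at 27.7 in CFPAC-1, the reverse of the order for IFI27. IRF7 was at 42.6 TPM in T3M-4 experiment 2 and at 0.0467 and 0.366 TPM in the BxPC-3 experiments, where it was too low to test. IRF1 kept the narrowest of these ranges, with medians from 12.7 TPM in A-375 to 121 in BxPC-3 experiment 2. The tables were made separately and these levels were not tested against each other.

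**Figure D1:**
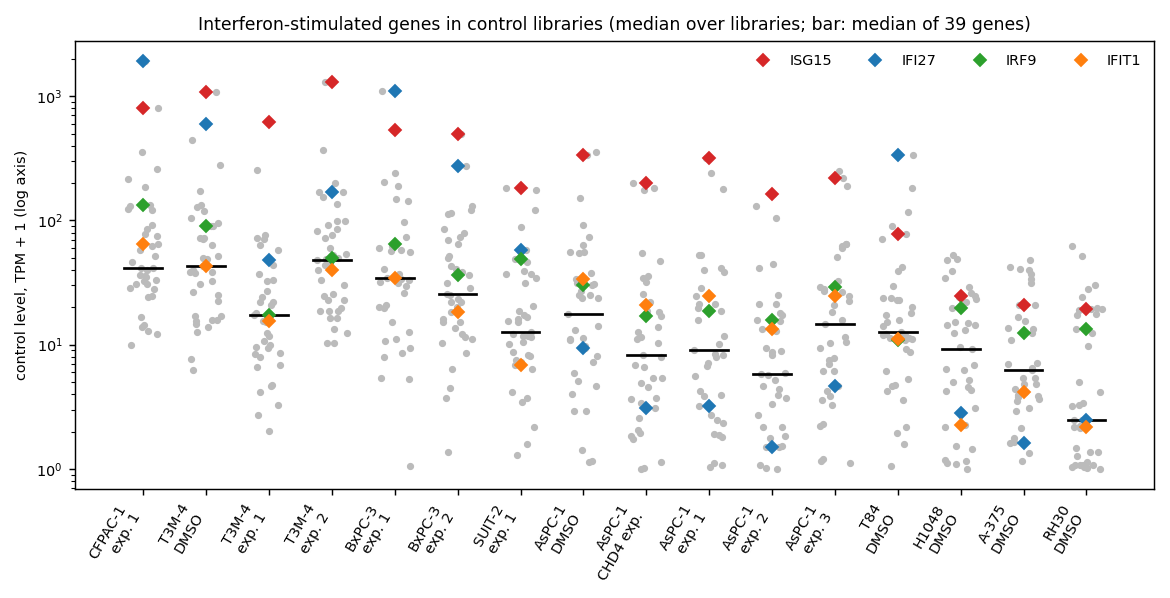
Levels of the 39 measured members in control libraries of each line and experiment, on a log axis of TPM + 1. Each point is the median of a gene over the control libraries, black bars are medians over the 39 genes, and ISG15, IFI27, IRF9 and IFIT1 are coloured. The bars fall from CFPAC-1 and T3M-4 on the left to RH30 on the right, and IFI27 runs from 1917 TPM in CFPAC-1 to 0.508 in AsPC-1 experiment 2.

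In T3M-4 experiment 2, loss of KLF5 raised 32 of 39 members and none was called lower, while 23.4% of all genes were called higher and 11.2% lower. The median log2 fold change was 0.81 over the members and 0.10 over all genes. All 4 interferon transcription factors, all 4 IFIT genes, all 4 antiviral GTPases and all 7 of the other interferon-induced genes rose. Of the OAS genes and of the RNA sensors 3 of 4 rose, of the other antiviral effectors 6 of 8, and of ISG15 and the genes of its pathway 1 of 4.

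IFI27 was at 132, 121, 213 and 204 TPM in the sgRosa libraries and at 1448, 1384, 1073 and 1116 TPM in the sgKLF5 libraries. The difference was 2.93 ± 0.21 (SE) on the log2 scale (adjusted p = 7.1e-09), and the groups stood well apart. IFI6, a small protein that protects cells from virus-induced death, went from 79.6, 80.4, 139 and 114 TPM to 755, 851, 725 and 692, a log2 fold change of 2.89 ± 0.24 (adjusted p = 3.1e-08). MX1, a GTPase that traps viral nucleocapsids, was at 39.7, 37.9, 61.1 and 54.9 TPM against 215, 222, 180 and 177, a log2 fold change of 2.04 ± 0.17. IFI44L rose by 2.53 ± 0.19, MX2 by 2.26 ± 0.16 and XAF1, a pro-apoptotic gene, by 1.91 ± 0.15. In none of these genes did the groups overlap.

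The genes above were picked for the largest changes, and the transcription factors moved less than those. IRF9, STAT2 and IRF7 changed by more than the median over the members, and IRF1 by less. IRF9 was at 45.3, 41.8, 61.3 and 51.6 TPM in sgRosa and 102, 114, 99.5 and 102 TPM in sgKLF5, a log2 fold change of 1.06 ± 0.12. STAT2 changed by 1.03 ± 0.14 and IRF7 by 1.07 ± 0.10. IRF1 changed by 0.39 ± 0.11 (adjusted p = 0.013). The sensor DDX58 rose by 0.63 ± 0.10, OAS1, which makes the activator of RNase L, by 0.81 ± 0.12, and the translation blocker IFIT1 by 0.73 ± 0.13. ISG15 was at 1245, 1206, 1377 and 1601 TPM against 1830, 1733, 1536 and 1595. These groups overlapped and the log2 fold change of 0.31 ± 0.14 did not pass the test (adjusted p = 0.10), so the most abundant member was not among those called.

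Every other knockout of the same experiment also raised most members. These comparisons share the 4 sgRosa libraries, so they are not independent of one another, and the values are given side by side. In sgRUVBL1 cells 32 members were higher and 1 lower (all genes 45.9% and 14.6%, median 0.85 against 0.25). In sgRUVBL2 cells 34 were higher and 1 lower (39.3% and 15.2%, median 0.79 against 0.19). In sgCDK1 cells 29 were higher and none lower (13% and 3.85%, median 0.62 against 0.15), and in sgRPA3 cells 25 and none (18.4% and 6.2%, median 0.59 against 0.15). Where the median of all genes was itself above 0.1, libraries scaled by the median of ratios gave 26 higher and 2 lower members for sgRUVBL1, 27 and 3 for sgRUVBL2, 20 and 0 for sgCDK1 and 21 and 0 for sgRPA3. Without sgCDK1 replicate 1 or replicate 2 the sgCDK1 count was 17 or 19. With only the compared groups in the fit it was 14, and the sgRPA3 count was 15.

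IFI6 was at 373, 448 and 420 TPM in sgRUVBL1, 301 and 345 in sgCDK1 and 245 and 458 in sgRPA3. In sgRUVBL2 it was at 738, 341, 337 and 573 TPM, where replicates 1 and 4 were the high ones. All of these libraries lay above the 4 sgRosa libraries and all but sgRUVBL2 replicate 1 below the sgKLF5 libraries. For IFI27 the log2 fold changes were 2.29 ± 0.23 in sgRUVBL1, 2.63 ± 0.21 in sgRUVBL2, 1.52 ± 0.26 in sgCDK1 and 1.56 ± 0.26 in sgRPA3. For IRF9 they were 1.13 ± 0.13, 1.05 ± 0.12, 0.79 ± 0.15 and 0.86 ± 0.15 in the same order. IRF1 had the reverse pattern. It was at 168, 178 and 186 TPM in sgRUVBL1 and at 159, 171, 172 and 187 in sgRUVBL2, against 91.9 to 99.9 TPM in sgKLF5, and its log2 fold changes against sgRosa were 1.27 ± 0.12 and 1.23 ± 0.11. The member that fell in both RUVBL knockouts was HERC5, the ligase that attaches ISG15, by -0.28 ± 0.08 and -0.42 ± 0.08. Between sgRPA3 and sgCDK1 no member differed in limma's test (0.974% of all genes higher, 1.95% lower), and 2 members had an unadjusted p under 0.05. The leukocyte markers summed to 10.2 to 12.4 TPM in sgRosa, 8.37 to 10.2 in sgKLF5, 17.9 to 21.0 in sgRUVBL1 and 12.2 to 19.3 in sgRUVBL2, and their part in these results was not tested. In bulk RNA, more cells expressing a gene and more of its RNA per cell cannot be told apart, here or in any result that follows.

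**Figure D2:**
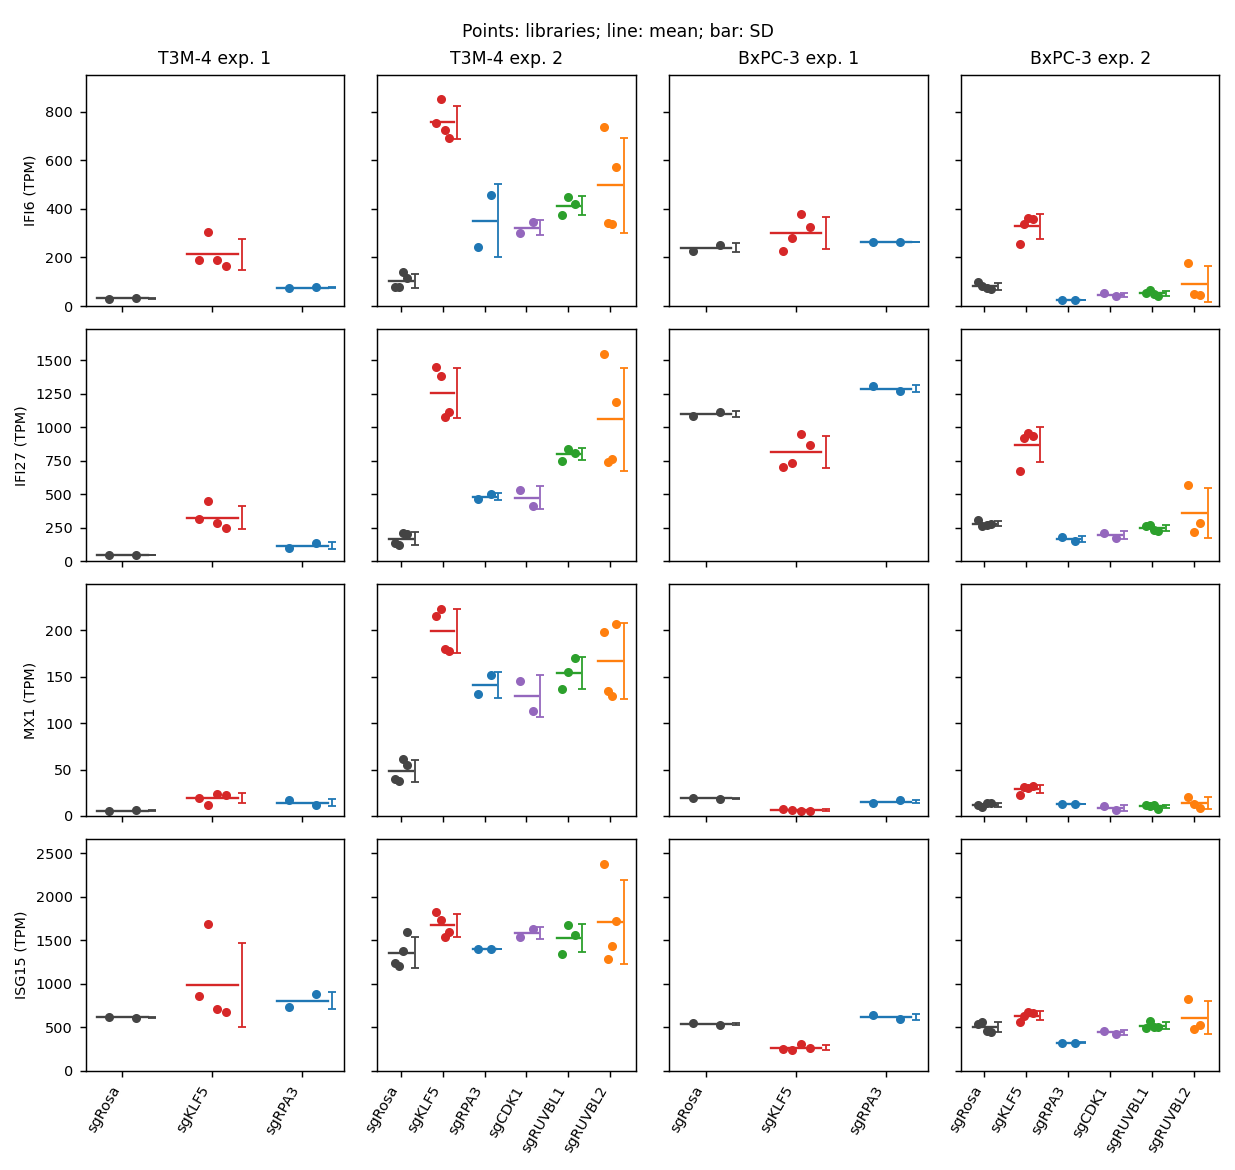
TPM of IFI6, IFI27, MX1 and ISG15 in every library of T3M-4 and BxPC-3, by guide, with the mean as a line and the SD as a bar; each row shares its axis. In T3M-4 experiment 2 every knockout lies above sgRosa for the first 3 genes, whereas in BxPC-3 the sgKLF5 libraries are at like IFI6 levels in both experiments and the sgRosa libraries are not.

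In T3M-4 experiment 1, with 2 sgRosa libraries, sgKLF5 changed fewer members. Of 39 members 6 rose and none was called lower, beside 3.26% and 2.46% of all genes, and the medians were 0.57 over the members and -0.22 over all genes. IFI27 went from 46.5 and 47.0 TPM to 314, 449, 282 and 249, a log2 fold change of 2.73 ± 0.25 (adjusted p = 0.0013). IFI6 went from 30.4 and 33.3 TPM to 188, 303, 191 and 166, a change of 2.66 ± 0.24 (adjusted p = 0.0013). MX1 rose by 1.54 ± 0.32, BST2, which tethers budding virions, by 1.32 ± 0.24, IRF7 by 1.23 ± 0.26 and IFI35 by 1.22 ± 0.25. In each of the 6 the sgKLF5 libraries were all above both sgRosa libraries.

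Replicate 2 of sgKLF5 in this experiment went both ways. It was the highest of its group for ISG15, at 1693 TPM against 674 to 865, and the lowest for MX1, at 12.3 against 19.1 to 23.6, and for IRF9, at 16.7 against 27.4 to 29.3. Without it 21 members were higher and 2 lower, and without replicate 1 or either sgRosa library 2 were higher. With libraries scaled by the median of ratios 16 members were higher and 1 lower, and 3 of the 6 were among them. The leukocyte markers summed to 14.0 to 15.4 TPM in sgRosa and 6.55 to 8.22 in sgKLF5, and their part was not tested. After RPA3 loss no member passed limma's test (0% of all genes in either direction), and 6 had an unadjusted p under 0.05. The RPA3 messenger RNA, with a log2 fold change of -1.40, did not pass this test either (adjusted p = 0.943). IFI6 was at 75.0 and 77.1 TPM in sgRPA3 and IFI27 at 96.6 and 134, above both sgRosa libraries. For STAT2 and SAMD9 the groups overlapped. The difference between the sgKLF5 responses of the 2 experiments was tested in a fit over both, a comparison chosen after the data were seen. It was larger in experiment 2 for 9 members and smaller for none, beside 12.8% and 4.66% of all genes. IFI44L differed by 1.71 ± 0.34 (adjusted p = 0.0035), XAF1 by 1.22 ± 0.31 (adjusted p = 0.016) and SAMD9 by 2.05 ± 0.62 (adjusted p = 0.033). Scaling turned this into 6 larger and 3 smaller. Of experiment 1, leaving out either sgRosa library left 1 called member, and leaving out sgKLF5 replicate 2, 3 or 4 gave 17, 18 or 20. Of experiment 2, leaving out sgKLF5 replicate 1, 2 or 3 or sgRosa replicate 1 left 4 or 5.

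In BxPC-3, the other basal-like line, sgKLF5 moved the members down in experiment 1 and up in experiment 2. IRF7 was not tested, which left 38. In experiment 1 26 of them fell and 2 rose, beside 8.1% and 8.09% of all genes, with a median of -0.91 against -0.02. All 4 OAS genes, all 4 RNA sensors and all 4 genes of the ISG15 pathway fell. DDX60, a helicase that acts with RIG-I, was at 60.2 and 58.9 TPM in sgRosa and 15.1, 14.5, 9.10 and 9.5 TPM in sgKLF5, a log2 fold change of -2.25 ± 0.25 (adjusted p = 0.00017). ISG15 went from 546 and 529 TPM to 251, 244, 312 and 263, a change of -1.01 ± 0.10. SAMD9 fell by 1.89, OASL by 1.5, OAS2 by 1.47, MX1 by 1.44 and IFIT1 by 1.38 on the log2 scale, and none of these groups overlapped. The genes that rose were GBP2, an interferon-gamma-induced GTPase, from 4.41 and 4.09 TPM to 15.4, 16.7, 18.0 and 16.8 (1.75 ± 0.14), and BST2 (0.29 ± 0.08). RPA3 loss changed no member in limma's test (0.29% and 0.0161% of all genes), and 2 members had an unadjusted p under 0.05.

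In experiment 2 of BxPC-3, 31 of 38 members rose after KLF5 loss and 1 fell, beside 21% and 13.6% of all genes, with a median of 0.72 against 0.05. IFI6 went from 98.9, 83.7, 72.5 and 69.9 TPM to 255, 337, 360 and 359, a log2 fold change of 2.00 ± 0.29 (adjusted p = 4.6e-05). IFI44L rose by 2.21 ± 0.27, USP18, the protease that removes ISG15 and damps receptor signalling, by 1.84 ± 0.21, and IFI27 by 1.62 ± 0.20. OAS2 rose by 1.25 ± 0.13, MX1 by 1.2 ± 0.21 and IFIT1 by 1.02 ± 0.15, each of which had fallen in experiment 1. The gene that fell was IRF1, from 109, 108, 133 and 142 TPM to 78.1, 81.6, 78.0 and 79.4, a log2 fold change of -0.62 ± 0.10. GBP2 rose in both experiments, here by 0.55 ± 0.17.

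The opposite responses of the experiments were themselves tested, in a comparison also chosen after the data were seen. The response was higher in experiment 2 for 31 of 38 members and lower for 2, beside 10.3% and 6.46% of all genes. The difference was 2.72 ± 0.20 for OAS2 (adjusted p = 3.4e-09), 2.64 ± 0.30 for MX1 (adjusted p = 1.5e-06), 2.4 ± 0.22 for IFIT1 (adjusted p = 8.4e-08) and 1.35 ± 0.19 for ISG15 (adjusted p = 1.6e-05). The 2 that went the other way were GBP2 (-1.21 ± 0.25) and IRF1 (-0.59 ± 0.16). For IFI6 and IFI27 the levels that differed between experiments were those of the controls. The sgKLF5 libraries held 225 to 379 TPM of IFI6 in experiment 1 and 255 to 360 in experiment 2, whereas sgRosa held 227 and 253 TPM in experiment 1 and 69.9 to 98.9 in experiment 2. The IFI27 levels were 699 to 951 and 674 to 957 TPM in sgKLF5, and 1083 and 1115 against 261 to 309 TPM in sgRosa. MX1 differed in both arms, with sgKLF5 at 5.48 to 7.82 TPM in experiment 1 and 23.0 to 32.7 in experiment 2. Its sgRosa libraries were at 18.7 and 19.7 TPM against 9.16 to 13.9. For ISG15 the sgKLF5 libraries differed, at 244 to 312 TPM against 567 to 675. The ISG15 levels in sgRosa overlapped, at 529 and 546 TPM against 446 to 568.

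The other knockouts of BxPC-3 experiment 2, which share its sgRosa libraries, moved fewer members than KLF5 loss, and most of those called were lower except after RUVBL2 loss. After RPA3 loss 4 (IRF1, GBP2, ISG20 and TRIM22) were higher and 11 lower (9.12% and 11.6% of all genes). IFI6 was at 23.4 and 24.2 TPM in sgRPA3, below all sgRosa libraries, a log2 fold change of -1.72 ± 0.36, and GBP2 was at 29.6 and 25.6 TPM, above all of them (0.95 ± 0.21). Without sgRPA3 replicate 1 or 2 or sgRosa replicate 1, 2, 6 and 8 members were called. After CDK1 loss none was higher and 2, IRF9 and IFIH1, were lower (3.71% and 2.12%), or 1 and 3 with libraries scaled. After RUVBL1 loss ISG20, an exonuclease, was the 1 higher and MX2, HERC5, BST2, PLSCR1 and IFI44 the 5 lower members (8.29% and 7.67%), with IFI44 at -0.49 ± 0.16. After RUVBL2 loss 2, ISG20 (0.80 ± 0.14) and IFIT2 (0.48 ± 0.12), were higher and none lower (4.27% and 5.48%). In sgRUVBL2, replicate 1 held 179 TPM of IFI6 and 830 of ISG15 against 47.8 and 46.2, and 485 and 524, in the other replicates, and without it 1 member was higher and 7 lower. Without sgRosa replicate 2 the sgRUVBL2 count was 1. The sgCDK1 count was 0 without sgCDK1 replicate 2 or sgRosa replicate 3 and 1 without any other library of that comparison. The sgRUVBL1 count was 1 without sgRUVBL1 replicate 1 and 3 without sgRUVBL1 replicate 2 or sgRosa replicate 1 or 4. The leukocyte markers summed to 3.46 to 4.63 TPM in sgRosa and 8.16 to 12.8 in sgRUVBL1, and their part was not tested.

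In AsPC-1 the response to KLF5 loss was mixed and small. In experiment 1, 11 of 36 members rose and 1 fell, beside 17.1% and 8.81% of all genes, and the median was 0.27 against 0.08. In some members sgKLF5 replicate 6 of this experiment stood apart from its other replicates. It held 42.7 TPM of IFI27 against 2.24 to 3.81, 41.2 of IFI6 against 14.2 to 17.8 and 5.66 of RSAD2 against 1.27 to 2.09. For OAS1 it lay within the range of the others. In experiment 3, 4 (IFIT5, GBP1, BST2 and IFI6) rose and 7 fell, beside 15.4% and 12.3%, and the median was -0.07 against 0.02. Some members kept their direction. BST2 went from 17.4 and 22.9 TPM to between 44.5 and 59.7 (median 47.0) in experiment 1, and from 28.9, 31.6, 31.1 and 36.7 to 75.0, 69.2, 67.9 and 62.5 in experiment 3, log2 fold changes of 1.25 ± 0.13 and 1.08 ± 0.14. OAS1 fell by 0.82 and by 0.92 on the log2 scale. GBP1 rose by 1.76 ± 0.17 and by 0.81 ± 0.13, and this difference between experiments was called (-0.94 ± 0.21, adjusted p = 0.0060) together with those of OAS2, OASL, GBP2, CMPK2 and ISG20. All 6 were lower in experiment 3, beside 0.7% of all genes called higher and 3.58% lower in that comparison, which was chosen after the data were seen. Leaving out sgRosa replicate 1 in experiment 1 left 7 called members. In experiment 3 leaving out sgKLF5 replicate 1 left 7, and sgRosa replicate 1 or 2 left 6. Without sgRosa replicate 1 or 2 of experiment 1, 2 or 3 of the differences were called.

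Loss of RUVBL1 in AsPC-1 moved members both ways. In experiment 2, 8 of 31 rose and 19 fell, beside 30% and 25.8% of all genes, and the medians were -0.36 and 0.02. All 4 transcription factors rose, while all 4 IFIT genes, all 4 OAS genes and all 4 genes of the ISG15 pathway fell. The sensors, the other antiviral effectors and the other induced genes each held calls in both directions. IRF7 was at 12, 12.3, 11.9 and 11.1 TPM in sgRosa and 34.0, 23.8, 29.8 and 32.8 in sgRUVBL1, a log2 fold change of 1.27 ± 0.10 (adjusted p = 6.8e-08). STAT2 rose by 0.72 ± 0.11. IFIT3, which stabilises IFIT1, was at 22.8, 22.1, 25.1 and 25.9 TPM against 8.84, 9.86, 9.65 and 8.22, a change of -1.3 ± 0.09 (adjusted p = 2.4e-08). IFIT1 fell by 1.17 and IFI44 by 1.29 on the log2 scale, and the groups of these genes did not overlap. IFI27 rose by 1.3 ± 0.19, from 0.370 to 1.07 TPM in sgRosa to 2.49 to 3.37 in sgRUVBL1, levels at which TPM + 1 compresses the change.

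Experiment 3, with its own sgRosa libraries, gave the same direction for IRF7, STAT2, IFIT3, IFIT1 and IFI44, while IFI27 was not called (0.26 ± 0.41). In it 4 of 36 members, STAT2, IRF7, IRF1 and DDX58, rose and 15 fell after RUVBL1 loss (36.6% and 15.2% of all genes, median -0.24 against 0.16). IRF9, ISG20 and BST2, called higher in experiment 2, were not called here (-0.10, -0.23 and -0.15). DHX58, IFIT5, OAS3, USP18, SAMD9 and PLSCR1, called lower in experiment 2, were not called either (-0.38, 0.06, -0.25, -0.22, 0.45 and 0.01). IRF7 changed by 0.65 ± 0.11, STAT2 by 0.80 ± 0.16, IFIT3 by -0.90 ± 0.08, IFIT1 by -0.73 ± 0.09 and IFI44 by -0.87 ± 0.10. OASL went from 240, 251, 270 and 245 TPM to 108, 142, 141 and 96.6, a change of -1.06 ± 0.10. After RUVBL2 loss, against the same sgRosa libraries, 6 rose and 5 fell (32.2% and 11%, median -0.06 against 0.13), and 5 and 12 with libraries scaled by the median of ratios. STAT2, IRF7, IRF1 and DDX58 rose here too, by 0.54 ± 0.16, 0.47 ± 0.11, 0.37 ± 0.11 and 0.56 ± 0.09, with RSAD2 and SAMD9, while OAS2, OASL, IFI6, IFI35 and IFI44 fell. None of the 4 IFIT genes was called. IFIT3 was at 48.3, 54.2, 47.5 and 55.5 TPM in sgRUVBL2 and at 30.4, 36.4, 32.8 and 26.9 in sgRUVBL1, but the 2 knockouts were not tested against each other.

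CHD4 loss in AsPC-1 gave 5 higher members (IRF9, IRF1, ISG20, BST2 and IFI27) and 17 lower of 32, beside 23.3% and 26.7% of all genes, with a median of -0.41 against -0.03. OAS1 went from 180, 184, 183 and 182 TPM to 50.9, 49.7, 54.8 and 63.1, a change of -1.73 ± 0.07 on the log2 scale (adjusted p = 3.5e-09), and OASL fell by 1.39. BST2 went from 17.3, 18.9, 17.3 and 17.0 TPM to 62.7, 79.2, 67.8 and 62.2 (1.88 ± 0.08), and IRF9 from 16.2, 16.0, 17.0 and 13.2 to 37.5, 36.4, 36.6 and 34.4 (1.17 ± 0.08). IFI27 rose by 1.24 ± 0.20 and GBP2 fell by 1.23. All 4 OAS genes were thus lower while IRF9, which acts upstream of them, was higher. Loss of SERPINB5 changed no member of 31 in limma's test (0.0172% of all genes in either direction), and 4 had an unadjusted p under 0.05.

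The CDK1 and RPA3 knockouts of AsPC-1 experiment 3 differed from each other. After CDK1 loss none rose and 14 fell (10.3% and 6.44% of all genes, median -0.30 against 0.04), and without sgCDK1 replicate 1 or 2 the count was 6 or 8. After RPA3 loss 3 (IRF1, IFIH1 and RSAD2) rose and none was called lower (0.638% and 0.0164%, median 0.20 against 0.07), and without sgRosa replicate 4 the count was 5, without sgRPA3 replicate 1 it was 0, and without sgRPA3 replicate 2 or sgRosa replicate 1 or 2 it was 1. Tested directly, 16 members were higher in sgRPA3 than in sgCDK1 and none lower (6.69% and 6.59%, median 0.48 against 0.02), and 10 without sgRPA3 replicate 1. ISG15 was at 109 and 103 TPM in sgCDK1, 202 to 245 in sgRosa and 326 and 306 in sgRPA3, a log2 difference of 1.57 ± 0.15 between the knockouts (adjusted p = 1.1e-06). IFIH1, the sensor MDA5, was at 2.13 and 1.83, 3.96 to 6.07, and 9.08 and 9.53 TPM (1.79 ± 0.18). RSAD2, or viperin, was at 0.384 and 0.910 TPM in sgCDK1 and 6.94 and 5.15 in sgRPA3 (2.1 ± 0.29). In all 3 genes the groups were fully separate. In BxPC-3 experiment 2 the same comparison gave 5 higher members (STAT2, IRF9, IFIH1, GBP2 and ISG20) and 5 lower (DDX58, OASL, GBP1, HERC5 and EPSTI1), beside 12.2% and 14.4% of all genes, with GBP2 at 1.52 ± 0.24 and EPSTI1 at -1.04 ± 0.28. Leaving out any of its 4 libraries gave 3 or 4. In CFPAC-1 no member was called in limma's test (0.416% and 0.204%), 6 had an unadjusted p under 0.05, and 2 higher and 13 lower were called with only these groups in the fit.

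Few members were called after KLF5 loss in SUIT-2 and CFPAC-1. In SUIT-2, 5 of 37 members rose and none was called lower, beside 2.94% and 1% of all genes, and the median was 0.47 against 0.18. MX1 went from 5.72, 8.52, 14.5 and 12.6 TPM to 29.7, 29.3, 22.2 and 27.8 (1.38 ± 0.27, adjusted p = 0.024). IFI6 went from 11.0, 10.7, 11.4 and 11.5 to 33.5, 34.9, 16.6 and 30.3 (1.24 ± 0.24, adjusted p = 0.023), and IFI27 rose by 1.09 ± 0.22. The others were IRF7 (0.77 ± 0.17) and ISG20 (0.90 ± 0.20). For MX1, IFI6 and IFI27 the groups did not overlap. The count was 0 without sgKLF5 replicate 1, 2 or 4 or sgRosa replicate 2, 1 without sgRosa replicate 4, and 2 without sgKLF5 replicate 3 or sgRosa replicate 3, and scaling gave 1 higher and 1 lower. The SUIT-2 libraries farthest from their own groups were sgKLF5 replicate 4 and sgRosa replicate 1. Their median correlations with the other libraries of the group were 0.943 and 0.944.

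In CFPAC-1, whose untreated level was among the highest, KLF5 loss gave 1 higher and 1 lower member of 39 (3.26% and 13% of all genes), or 2 and 1 with libraries scaled. STAT2 went from 36.9, 34.4, 34.4 and 35.1 TPM to 26.4, 27.4 and 25.4, a log2 fold change of -0.40 ± 0.09, and ISG20 changed by 0.35 ± 0.11. Leaving out any 1 of 6 libraries removed the ISG20 call. RUVBL1 loss gave 2 higher (GBP2 and ISG20) and 3 lower (STAT2, OAS3 and PLSCR1) members (6.54% and 37.3%, with all genes at a median of -0.20), and 6 and 1 with libraries scaled. OAS3 was lower by -0.81 ± 0.22 and STAT2 by -0.39 ± 0.08, and without sgRUVBL1 replicate 2 the count was 8. RUVBL2 loss gave 15 higher and none lower (2.83% and 9.26%, median 0.60 against -0.09). RSAD2 was at 44.0 and 20.4 TPM in sgRUVBL2 and at 17.0, 7.38, 7.66 and 10.4 in sgRosa (1.49 ± 0.32), and IFIT2 at 112 and 56.6 against 27.0 to 40.9 (1.2 ± 0.23). Replicate 1 of sgRUVBL2 was the higher in both, and without it 1 member was called. Without sgRosa replicate 3 the count was 9, and with only these groups in the fit it was 0. CDK1 loss changed no member in limma's test (0% of all genes in either direction, 2 members at an unadjusted p under 0.05). RPA3 loss gave 2 higher (STAT2 and IRF1) and 1 lower (IFI44), beside 8.17% and 3.39% of all genes, 0 and 2 with libraries scaled, 0 without either sgRPA3 library and 1 without sgRosa replicate 4.

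Over the 29 comparisons of a knockout with sgRosa, single members differed in how often and which way they moved. ISG20 was called higher in 14 and lower in 1, and IRF1 in 12 and 1. BST2, IFI27, GBP2 and IRF7 were each called higher in 10, with 1, 2, 4 and 1 calls lower, and IRF7 was tested in 22 comparisons. IFI44 had the most lower calls, 9, and was called higher in 5. HERC5 was called higher in 1 and lower in 8, OASL in 2 and 7, and DDX60 in none and 5. IFIT1 was called in 5 each way and OAS1 in 6 each way. Many of these comparisons share sgRosa libraries, so the counts describe this set of comparisons and are not independent repeats. How often other genes were called over the same comparisons is not given, so the counts do not set these members apart.

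**Figure D3:**
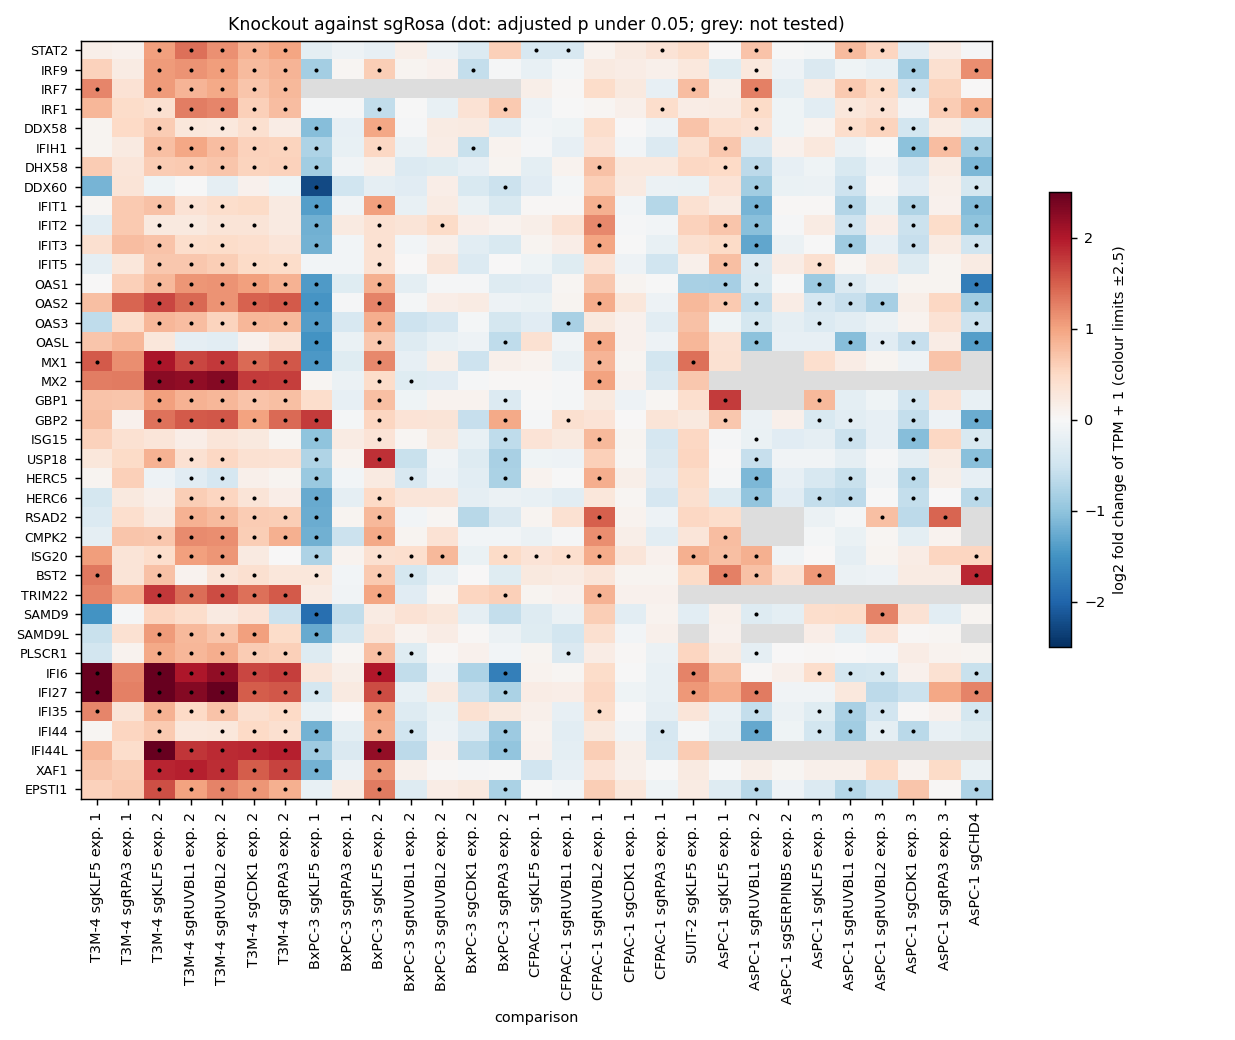
Log2 fold change of TPM + 1 of each measured member (rows, ordered by role) in the 29 comparisons of a knockout with sgRosa (columns). Red is higher than sgRosa and blue lower, colours stop at ±2.5, dots mark an adjusted p under 0.05 and grey cells were below 1 TPM on average. The columns of T3M-4 experiment 2 are red almost throughout, BxPC-3 sgKLF5 is blue in experiment 1 and red in experiment 2, and the AsPC-1 columns mix both.

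In AsPC-1 cells with the empty vector CB-6644 changed members at about the rate of all genes, and the genes described are single ones. All 3 constructs were compared with the same 3 DMSO libraries, 1 from each construct. In EV cells 20 of 36 members rose and 6 fell, beside 47.2% and 17.2% of all genes, and the medians were 0.39 and 0.19. With libraries scaled by the median of ratios 17 rose and 10 fell, and against the EV DMSO library alone 15 and 8. IRF1 was at 66.8, 65.8 and 78.1 TPM in CB-6644 and at 34.7 (EV), 24.3 (A62T) and 20.4 (dF109) in DMSO, a log2 fold change of 1.4 ± 0.14 (adjusted p = 4.1e-06). IFI27 rose by 1.44 ± 0.17, IFIH1 by 1.08 ± 0.16, STAT2 by 1.03 ± 0.14 and IFI6 by 0.96 ± 0.14, each with all CB-6644 libraries above all DMSO libraries.

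Fewer members were called higher in cells carrying a resistant variant. With RUVBL1 A62T 1 member, CMPK2, rose (0.31 ± 0.07) and 1, OASL, fell (10.8% and 1.98% of all genes), and with RUVBL2 dF109 1 rose and 9 fell (29.3% and 4.1%). Scaling gave 0 and 4 for A62T and 1 and 19 for dF109, with medians over all genes of 0.10 and 0.14. Against the construct's own DMSO library no A62T member was called, and 6 rose and 6 fell with dF109. STAT2 was the member that rose with dF109, at 18.9, 19.8 and 14.6 TPM in CB-6644 (0.72 ± 0.14), and OASL was lower with both, by -0.38 ± 0.07 and -0.50 ± 0.07. The A62T count was 0 without A62T CB-6644 replicate 1, 1 without replicate 2 or 3 or the dF109 DMSO library, 6 without the A62T and 7 without the EV DMSO library. The dF109 count was 6 and 5 without dF109 CB-6644 replicate 1 and 2, and 18 without the dF109 DMSO library. Compared within CB-6644, A62T cells were higher than EV cells in 3 members (IRF9, OAS1 and GBP2) and lower in 20 (18.9% and 32.3%), or 6 and 19 with libraries scaled. dF109 cells were higher in 3 (OAS1, GBP2 and PLSCR1) and lower in 23 (20.9% and 26.3%). IRF1 was at 28.1, 28.7 and 27.0 TPM with A62T and 28.7, 29.2 and 27.3 with dF109, differences of -1.29 ± 0.14 and -1.27 ± 0.14 from EV. IFI27 differed by -0.94 ± 0.17 and -1.61 ± 0.17. The 1 DMSO library of each construct leaves no replicate for a construct's own starting level.

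In T3M-4 the DMSO libraries of the constructs differed, and the comparisons turn on this. With 1 such library per construct, a difference between constructs in DMSO could not be tested. IFI6 was at 65.0 TPM in the EV DMSO library and at 319 and 281 in the A62T and dF109 DMSO libraries, and at 106, 85.1 and 66.1, 303, 372 and 318, and 307, 299 and 316 TPM in CB-6644 in the same order. Against the pooled DMSO libraries EV cells had 1 member, BST2, higher and 13 lower of 39 (19.1% and 15.2% of all genes, median -0.30 against 0.04), but against their own DMSO library 9 higher and 3 lower. DDX60 was at 42.7, 58.4 and 53.0 TPM in EV CB-6644, below EV DMSO at 105 and the others at 137 and 131 (-1.26 ± 0.12). IFI44L, lower by -1.13 ± 0.26 against the pool, was at 11.6, 11.0 and 9.05 TPM against 13.5 in EV DMSO. The EV count was 27 without the EV DMSO library, 6 without the dF109 DMSO library and 8 without the A62T DMSO library or EV CB-6644 replicate 2.

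With A62T 11 members were higher and none lower (45.4% and 4.6%), and with dF109 also 11 and none (34.3% and 3.34%). All genes rose by a median of 0.33 and 0.29 against 0.38 and 0.35 for the members, and scaling left 2 higher and 3 lower and 1 and 2. Against the construct's own DMSO library the counts were 0 and 4. Leaving out the A62T DMSO library gave 20 and 24. Leaving out a CB-6644 library of the construct gave 2 or 3 for A62T and 1 or 2 for dF109, leaving out the EV DMSO library gave 5 for each, and leaving out the dF109 DMSO library gave 7 for dF109. XAF1 changed by 1.02 ± 0.27 and 0.88 ± 0.27 and STAT2 by 0.88 ± 0.23 and 0.79 ± 0.23. Within CB-6644 A62T cells were higher than EV cells in 30 members and lower in 1, BST2 (41.4% and 9.21%), and dF109 cells in 29 and 0 (29.8% and 4.86%). Both were 19 higher and 1 lower with libraries scaled, and the dF109 count was 16 to 19 without any of its CB-6644 libraries or EV CB-6644 replicate 2 or 3. IFI6 was higher by 1.95 ± 0.45 and 1.85 ± 0.45, differences that the DMSO libraries already showed. The leukocyte markers summed to 8.0 to 15.6 TPM in EV CB-6644, 20.7 to 24.4 with A62T and 20.2 to 23.1 with dF109, and to 8.22, 19.0 and 10.7 in the DMSO libraries, and their part was not tested.

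**Figure D4:**
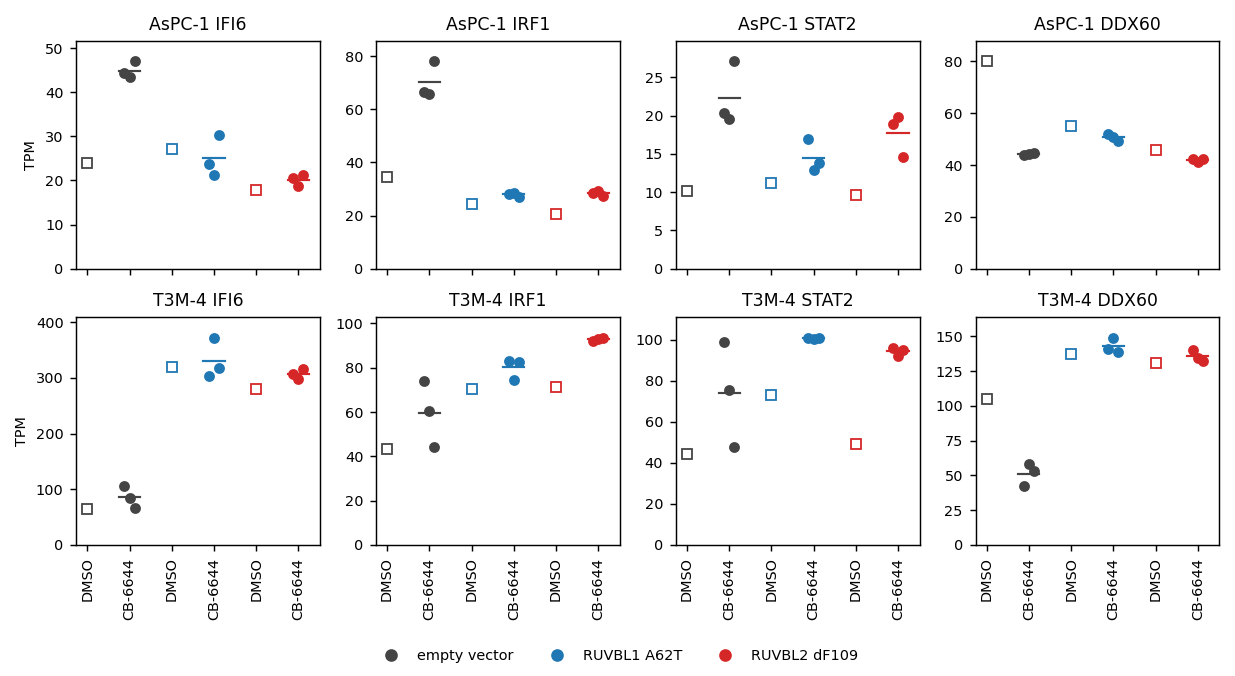
TPM of IFI6, IRF1, STAT2 and DDX60 in AsPC-1 (top) and T3M-4 (bottom) cells carrying the empty vector (dark grey), RUVBL1 A62T (blue) or RUVBL2 dF109 (red). Open squares are the DMSO library of each construct, filled points the 3 CB-6644 libraries and lines their mean. In AsPC-1 the EV libraries in CB-6644 stand above the rest for IFI6 and IRF1, and in T3M-4 the EV libraries are below the variants for IFI6 in DMSO and CB-6644 alike.

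In the 4 lines from other tissues CB-6644 changed most tested members, in both directions. In T84, 19 of 36 rose and 8 fell (47.2% and 24.2% of all genes, median 0.26 against 0.13). In A-375, 16 of 36 rose and 15 fell (51.5% and 29.7%, median -0.02 against 0.16). In H1048, 18 of 33 rose and 9 fell (53.9% and 24%, 0.19 against 0.18), and in RH30, 14 of 23 rose and 4 fell (50.4% and 27.3%, 0.15 against 0.13). With libraries scaled the splits were 15 and 13, 12 and 18, 16 and 10, and 9 and 7. The members were called about as often as other genes, so these counts say little of the members as a list, and single genes are described next.

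STAT2, IRF1 and IRF7 were called higher in each of these lines. STAT2 went from 13.2, 15.7, 14.3 and 14.3 TPM to 34.3, 34.3, 33.5 and 32.4 in T84 (1.17 ± 0.06, adjusted p = 2.9e-10), and rose by 0.92 ± 0.04 in H1048. IRF1 went from 11.8, 11.3, 14.4 and 13.6 TPM to 42.1, 40.6, 41.4 and 37.1 in A-375 (1.59 ± 0.07, adjusted p = 3.4e-09), and rose by 1.03 ± 0.05 in T84 and 1.07 ± 0.06 in H1048. In RH30 IRF1 was at 22.8 to 23.8 TPM in DMSO and 24.7 to 26.5 in CB-6644 (0.15 ± 0.04), while IRF7 went from 1.48, 2.60, 1.80 and 2.75 to 6.24, 7.38, 5.46 and 6.93 (1.26 ± 0.13). IRF7 also rose by 1.19 ± 0.10 in T84. IFI27 rose by 2.05 ± 0.16 in A-375, 2.22 ± 0.19 in H1048 and 1.49 ± 0.17 in RH30, where its DMSO levels were at or under 0.715, 2.68 and 1.99 TPM. In H1048 RSAD2 went from 3.03, 3.25, 3.71 and 3.19 TPM to 16.4, 18.5, 17.7 and 18.1 (2.12 ± 0.07). MX1 rose by 1.09 ± 0.07 in T84 and IFI6 by 1.2 ± 0.06 in A-375. None of the groups described here overlapped.

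Other members fell in the same libraries. IFI44, a gene of unsettled function, went from 33.8, 37.3, 36.9 and 35.4 TPM to 11.5, 11.1, 11.0 and 10.6 in A-375 (-1.61 ± 0.04, adjusted p = 7.6e-11) and was lower by -0.90 ± 0.05 in RH30. USP18 went from 50.5, 51.2, 50.2 and 49.8 TPM to 24.7, 22.1, 22.8 and 25.6 in RH30 (-1.05 ± 0.04, adjusted p = 5.4e-10). IFIT3 went from 19.2, 24.2, 21.4 and 27.2 TPM to 13.4, 12.6, 11.3 and 13.1 in T84 (-0.81 ± 0.09). GBP1 was lower by -1.44 ± 0.13 in A-375 and TRIM22 by -1.16 ± 0.06 in H1048. Called higher in all 4 lines were STAT2, IRF7, IRF1, OAS3, ISG15, IFI6, IFI27 and XAF1. With libraries scaled STAT2, IRF7, OAS3 and IFI27 were still called higher in 4 lines, IRF1, IFI6 and XAF1 in 3 and ISG15 in 2. IFIT3, USP18 and IFI44 were called lower in all 4 lines with either scaling. The share of all genes called alike in all 4 lines is not given, so these lists do not set the members apart from other genes.

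The size of the response differed between the lines for all 37 members tested in a fit over them (limma's interaction F test), but so it did for 86.2% of all genes. Calls in opposite directions occurred for 7 members, IRF9, DHX58, IFIT2, GBP1, GBP2, HERC5 and BST2. Since all 37 tested members passed the interaction test, passing it adds nothing for these 7. The share of all genes with opposite calls is not given, so the 7 are only a description.

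**Figure D5:**
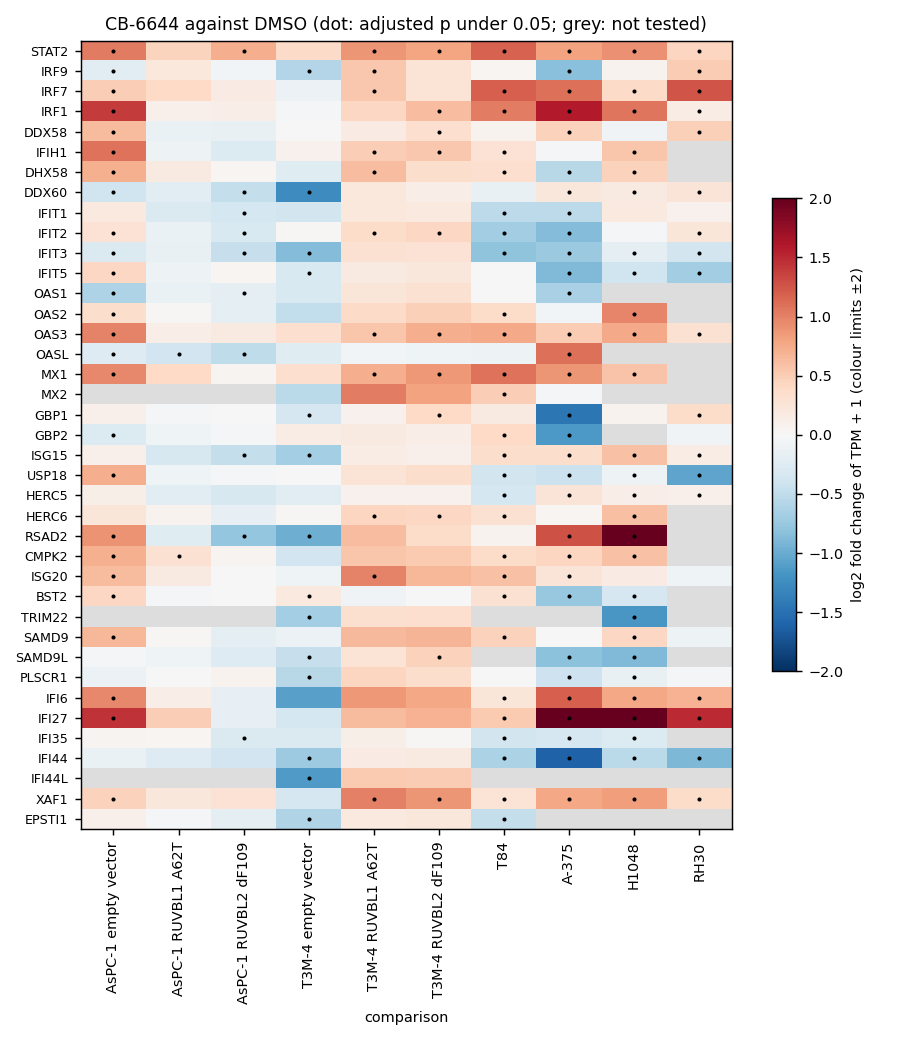
Log2 fold change of TPM + 1 of each measured member (rows, ordered by role) in CB-6644 against DMSO, in AsPC-1 and T3M-4 cells by construct and in the 4 other lines (columns). Red is higher in CB-6644 and blue lower, colours stop at ±2, dots mark an adjusted p under 0.05 and grey cells were not tested. STAT2, IRF7 and IRF1 are red in the columns of T84, A-375, H1048 and RH30, where IFIT3, USP18 and IFI44 are blue.

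The other genes of the pathway, 37 ligands, receptors, kinases, sensors, chemokines and regulators that are not members, were counted in the same comparisons. In T3M-4 experiment 2, 19 of 31 tested rose after KLF5 loss and 2 fell, beside 23.4% and 11.2% of all genes. CXCL10, an interferon-induced chemokine, went from 10.3, 9.64, 9.88 and 15.1 TPM to 52.9, 49.8, 37.4 and 44.5 (1.96, adjusted p = 1.5e-07), SOCS1, the feedback inhibitor of Janus kinases, rose by 1.67 and CCL5 by 1.2. After RUVBL1 or RUVBL2 loss 25 and 24 rose, beside 45.9% and 39.3% of all genes, with TICAM1, the adaptor of TLR3, at 1.59 and 1.33. After CDK1 and after RPA3 loss 16 rose, beside 13% and 18.4%. In BxPC-3 none of 29 rose and 4 fell after KLF5 loss in experiment 1, beside 8.09% and 8.1% of all genes, with CXCL11 at -1.55 and CCL5 at -1.17. In experiment 2 10 of 27 rose and 3 fell, beside 21% and 13.6%, with CXCL10 at 3.09 and CXCL11 at 1.78. Transcripts of IFNB1, IFNL1 and IFNA2 were scarce in T3M-4 experiment 2. IFNB1 averaged 0.401 TPM in sgRosa and 0.476 in sgKLF5, IFNL1 1.2 and 0.637 (called lower, -0.43, adjusted p = 0.026), and IFNA2 was listed at 0 in both.

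CB-6644 raised 16 of 27 tested pathway genes and lowered 2 in AsPC-1 EV cells, and 15 of 28, 15 of 26, 15 of 26 and 17 of 23 in T84, A-375, H1048 and RH30, where 3, 7, 2 and 4 fell. Of all genes 47.2% rose in AsPC-1 EV cells and 47.2%, 51.5%, 53.9% and 50.4% in the other lines, so these counts do not set the pathway apart. IFNE, an epithelial type I interferon, rose by 1.01 in T84, 2.21 in A-375 and 1.54 in H1048, from mean DMSO levels of 0.753, 1.92 and 1.03 TPM to 2.52, 12.5 and 4.96. It also rose after RUVBL1 loss in AsPC-1, by 1.78 in experiment 2 and 1.18 in experiment 3. In AsPC-1 this was not confined to RUVBL1 loss. With CHD4 lost, IFNE was at 3.05 to 3.83 TPM against 0.85 to 2.004 in the sgRosa libraries of that experiment, without overlap. With KLF5 lost in AsPC-1 experiment 1, the IFNE levels overlapped those of sgRosa.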

How the data were processed

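Poly-A RNA was sequenced from 183 libraries. The authors quantified transcripts with kallisto against hg38 and computed TPM with tximport. They describe removal of low-abundance transcripts with their differential expression step and not with the TPM. The deposited values are TPM by gene name, which sum to a fixed total and correct for transcript length. TPM keep no read counts, so the depth per library is unknown and no count model was used.

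Libraries of a line and experiment were fitted together in 16 fits, giving 47 comparisons, as log2(TPM + 1) with limma 3.58.1 (R 4.3.3, trend). Genes below 1 TPM on average in a fit were dropped, and p-values were adjusted over all of them by Benjamini-Hochberg with a threshold of 0.05. The procedure was tested on simulated data. The 3 DMSO libraries of AsPC-1 and of T3M-4, 1 per construct, served as a common reference. The members, the role and pathway lists and the tests were chosen with earlier results of these data known.

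Any member could be named. Values in every library were drawn from a fixed panel (IFIT1, ISG15, MX1, OAS1, IFI6, IFI27, IRF1, IRF7, IRF9, STAT2, DDX58) and from up to 6 called members with the largest changes, and up to 4 called pathway genes were named in a comparison. IFNE, IFNB1, IFNL1 and IFNA2, and small counts of members, were also named after their values were seen. Replicate numbers were checked for pairing. In 23 comparisons with 3 or more pairs, the deviations of same-numbered libraries from their group means correlated above 0.1 in every pair in 0, so the numbers did not pair the libraries. Among 230 replicate pairs 0 were near-identical. All samples carried the same batch label. Alternatives changed the pseudocount, filter, scaling (median of ratios), samples in the fit, reference and block, and left out each library in turn. STING1 was read under its older name TMEM173, and PARP9 and PARP14 were not analysed here. A pathway gene and a leukocyte marker of the lists are not reported here and were left out of the counts and sums.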

Additional observations from a re-analysis of the deposited data

Results flagged for a closer look

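Within groups of 4 to 10 libraries, 179 pairs of a gene named with its values and a group were searched for a library far from the rest of its group, and 7 were found, where chance gives about 1 in 20. XAF1 was at 59.8 TPM in sgKLF5 replicate 2 of T3M-4 experiment 2, against 49.6 to 51.1 in its other replicates. BST2 was at 949 TPM in sgKLF5 replicate 2 of T3M-4 experiment 1, against 532 to 603. IFI27 was at 674 TPM in sgKLF5 replicate 1 of BxPC-3 experiment 2, against 915 to 957. RSAD2 was at 2.66 TPM in sgRosa replicate 4 of AsPC-1 experiment 3, against 1.2 to 1.36. In A-375 IFI27 was listed at 0 in DMSO replicate 4, against 0.599 to 0.715 TPM, and IFI6 was at 76.5 TPM in CB-6644 replicate 4, against 69.4 to 70.2. In RH30 IFI27 was at 1.99 TPM in DMSO replicate 2, against 1.44 to 1.49.

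The response to sgKLF5 differed between experiments of the same line for 33 members in BxPC-3, 9 in T3M-4 and 6 in AsPC-1 by the test of the difference. The response to CB-6644 differed among T84, A-375, H1048 and RH30 for 37 members by the interaction test.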

How the results depend on the processing

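Counts of called members under 1 changed choice at a time stayed within 1.5 times the reported count for all 51 counts with a pseudocount of 0.1, for 48 of 51 without a filter and with a mean of at least 5 TPM, for 41 of 51 with median-of-ratios scaling, for 32 of 50 with only the compared groups in the fit and for 3 of 6 against the construct's own DMSO library. No single reported gene changed direction while called. The cause of the changes below was not tested. Without a filter the counts were 1 for BxPC-3 sgCDK1, 9 for BxPC-3 sgRPA3 and 1 for CFPAC-1 sgKLF5. With at least 5 TPM they were 1 for AsPC-1 A62T, 16 for A-375 and 11 for RH30. With scaling they were 4 for AsPC-1 A62T, 20 for AsPC-1 dF109, 17 for T3M-4 sgKLF5 experiment 1, 5 and 3 for T3M-4 A62T and dF109, 20 for T3M-4 A62T against EV, 17 for AsPC-1 sgRUVBL2, 4 for BxPC-3 sgCDK1 and sgRUVBL2 each, and 2 for SUIT-2. With only the compared groups they were 0 for AsPC-1 A62T, 5 for AsPC-1 dF109, 3 for T3M-4 sgKLF5 experiment 1 and T3M-4 EV each, 4 and 5 for T3M-4 A62T and dF109, 10 for AsPC-1 sgRPA3, 27, 18 and 15 for sgRPA3 against sgCDK1 in AsPC-1, BxPC-3 and CFPAC-1, 5, 13 and 0 for BxPC-3 sgCDK1, sgRUVBL1 and sgRUVBL2, 0 for CFPAC-1 sgRPA3 and sgRUVBL2, 14 and 15 for T3M-4 sgCDK1 and sgRPA3, and 1 for the T3M-4 difference. Against the construct's own DMSO library they were 0 for AsPC-1 A62T, 0 for T3M-4 A62T and 4 for T3M-4 dF109.

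The replicate block, whose numbers did not pair the libraries, left 41 of 45 counts within 1.5 times and gave 13 for T3M-4 sgKLF5 experiment 1, 1 for BxPC-3 sgCDK1, 1 for CFPAC-1 sgRPA3 and 0 for SUIT-2. Leaving out 1 library at a time gave 0 to 7 for AsPC-1 A62T, 5 to 18 for AsPC-1 dF109, 7 to 14 for AsPC-1 sgKLF5 experiment 1 and 6 to 9 for experiment 3, 6 to 14 for AsPC-1 sgCDK1, 0 to 5 for AsPC-1 sgRPA3 and 10 to 13 for AsPC-1 sgRPA3 against sgCDK1. In T3M-4 it gave 2 to 23 for sgKLF5 experiment 1, 6 to 27 for EV, 2 to 20 for A62T, 1 to 24 for dF109, 16 to 28 for dF109 against EV and 17 to 30 for sgCDK1. In BxPC-3 it gave 0 to 1 for sgCDK1, 2 to 13 for sgRPA3, 1 to 5 for sgRUVBL1, 1 to 8 for sgRUVBL2 and 3 to 4 for sgRPA3 against sgCDK1. In CFPAC-1 it gave 1 to 2 for sgKLF5, 0 to 3 for sgRPA3, 5 to 8 for sgRUVBL1 and 1 to 21 for sgRUVBL2, in SUIT-2 0 to 7, and for the differences between experiments 2 to 8 in AsPC-1 and 1 to 20 in T3M-4. Where an arm was left with 1 library, it was assumed to vary like the other groups of the fit.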
